A study of Homo sapiens with 10 samples.

Results

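The zinc finger genes that start between 39 and 55 Mb of hg19 chromosome 19, bands q13.2 to q13.41, were followed after deletion of ZNF274. Genes were taken by symbol (ZNF, ZFP, ZSCAN and related names, of any biotype) and by start position, and had to be listed in the count tables of both cell types. The rule gave 73 genes of the 19665 listed in both tables and of the 24050 listed in either. RNA-seq was performed on wild-type (WT) and ZNF274 knockout (KO) cells of 2 kinds. HEK293T, a line derived from human embryonic kidney, gave 3 WT and 3 KO libraries. Neural progenitor cells (NPCs), made from H1 embryonic stem cells through embryoid bodies, gave 2 WT and 2 KO libraries. In both, ZNF274 was deleted with CRISPR-Cas9 and a pair of guides placed on either side of the gene; KO HEK293T cells were single-cell sorted and KO stem cells were picked as single colonies. The labels do not tell which clone or culture each library came from, so the P values measure the spread between these libraries, which may in part be technical.

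KRAB zinc finger proteins (KZFPs) are DNA-binding repressors. Their array of C2H2 fingers reads a DNA sequence, and their KRAB domain recruits TRIM28 (KAP1), which brings the H3K9 methyltransferase SETDB1 and heterochromatin protein 1 and so sets up H3K9me3 heterochromatin. Most human KZFP genes lie in tandem arrays, many of them on chromosome 19, which arose by repeated duplication, and many of the proteins bind transposable elements. ZNF274 is itself a KZFP, also has a SCAN domain, and is known for binding the exons that encode zinc fingers in other KZFP genes.

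Of the 73 members, 70 are protein coding and 3 are transcribed pseudogenes (ZNF137P, ZNF702P and ZNF818P). A KRAB A box was found in the encoded protein of 62 members, where 23 to 33 of 40 aligned residues matched a consensus. These members encode 3 to 26 C2H2 fingers, with a median of 13.5. Finger count and KRAB match were each the highest over the isoforms of a gene, so they may come from different isoforms. No KRAB box was found in 8 members, ZFP36, ZNF574, ZNF526, ZNF575, ZNF576, ZNF428, ZNF296 and ZNF473, in which 6 to 14 residues matched. ZNF473 had the 14, and the others had 6 to 8. A match without gaps to 1 consensus can miss a divergent box, so the lack of a box was not shown, least of all for ZNF473. By start, 6 members fall in the first position group at 39 to 43 Mb, 23 in the second at 43 to 46 Mb, 2, ZNF114 and ZNF473, in the third, which starts at 46 Mb, and 42 in the fourth, which runs from ZNF175 at position 52074536 to 55 Mb. The same stretch holds 445 other genes.

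ZNF274 itself lies outside the interval, at chr19:58694396-58724928. It had 445, 423 and 492 counts in the WT HEK293T libraries and 491 and 496 in the WT NPC libraries, and 0 in every KO library of either kind. Its normalised level was therefore at least 138-fold lower in KO HEK293T and at least 172-fold lower in KO NPCs, against a floor of 3 counts per library. The libraries held 21421013 to 32285876 counts on genes in HEK293T and 18621266 to 23035490 in NPCs. One KO HEK293T library, S18, had the lowest total and stood farthest from its replicates, so counts are also given without it below. Levels are given in CPM (counts relative to the total of each library) after TMM normalisation, and a gene was called when its adjusted P value was below 0.05 and its FC above 2. In bulk RNA a change in the number of cells that express a gene and a change in RNA per cell cannot be told apart.

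In KO HEK293T cells most zinc finger genes of this interval had a fitted level above WT, and those that passed the test all lay in its last position group. Of the 67 members tested, 9 were up-regulated: ZNF836, ZNF880, ZNF528, ZNF808, ZNF83, ZNF600, ZNF28, ZNF347 and ZNF525. This is 13.4% of members, and 0.478% of all 19018 genes tested were called higher. None was called lower by edgeR, by DESeq2 or by voom, against 0.0105% of all genes, and 4 were lower at an unadjusted P below 0.05, against 2.69% of all genes. The log2 FC was above 0 in 56 of the 67 members, and its median was 0.54 (0.54 also with members at the floor set to their bound), whereas the median of all genes tested was 0.01. In 39 members every KO library was above every WT library, which held for 7.16% of all genes, and in 6 members every KO library was below, which held for 5.27% of all genes. The 3 KO libraries each shared the shift, with medians over members of 0.61 in S18, 0.53 in S19 and 0.29 in S20, as differences from the WT mean on the log2(CPM + 0.5) scale. The count of 9 fell to 4, 2 and 5 when WT library S15, S16 or S17 was left out and to 3 without KO library S19, and was 8 without S18 or S20.

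ZNF528 (ENSG00000167555, chr19:52901102-52921665, plus strand), a KZFP with 15 fingers, gave the clearest change. Its level was 0.0668, 0.103 and 0.203 CPM in WT libraries, from 2, 3 and 6 counts, and 7.25, 7.98 and 7.88 CPM in KO libraries. All KO libraries were thus far above all WT libraries, and the KO libraries lay close together. The log2 FC was 5.91 ± 0.39 (SE; adjusted P = 4.24e-05). ZNF347 (ENSG00000197937, chr19:53627325-53662328, minus strand), with 17 fingers, went from 0.0334, 0.0344 and 0.373 CPM to 8.82, 6.08 and 4.63 CPM, a log2 FC of 5.43 ± 0.64 (adjusted P = 0.00211). Its groups did not overlap either, and 2 of the 3 WT libraries held a single read. These 2 genes kept their call under all 13 other settings, including each library left out.

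ZNF600 (chr19:53253195-53290060, minus strand; 18 fingers) had 0 counts in the 3 WT libraries and 10, 12 and 16 counts in the KO libraries. Every KO library held reads and no WT library did. Its level in KO was at least 4.60-fold higher than the WT floor of 3 counts per library (adjusted P = 0.0461), and the call was lost in each of the 6 fits that left out a library. ZNF525 (chr19:53868946-53895470, plus strand; 8 fingers) rose from 0.167, 0.0344 and 0.44 CPM to 4.15, 5.19 and 1.83 CPM, a log2 FC of 4.09 ± 0.65 (adjusted P = 0.0159). The lowest KO library of ZNF525 was above the highest WT library, although its KO libraries were spread more widely than those of ZNF528.

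ZNF83, ZNF808, ZNF880 and ZNF836 were transcribed at a low level, 0.275 to 2.31 CPM, in WT libraries. ZNF83 (chr19:53097313-53193812, minus strand; 14 fingers) went from 1.17, 0.551 and 1.69 CPM to 10.2, 11.2 and 5.23 CPM (log2 FC 2.96 ± 0.42, adjusted P = 0.00803). ZNF808 (chr19:53030905-53067717, plus strand; 23 fingers), a KZFP required for development of the human pancreas, went from 0.835, 0.275 and 0.305 CPM to 3.62, 3.47 and 2.39 CPM (log2 FC 2.73 ± 0.46, adjusted P = 0.024). In both genes the KO libraries were well above the WT libraries. ZNF880 (chr19:52873170-52889048, plus strand; 13 fingers) went from 0.601, 2.31 and 1.83 CPM to 6.99, 7.25 and 6.95 CPM (log2 FC 2.16 ± 0.40, adjusted P = 0.0485). ZNF836 (chr19:52657117-52674896, minus strand; 24 fingers) went from 0.768, 1.1 and 1.25 CPM to 4.89, 5.1 and 3.48 CPM (log2 FC 2.10 ± 0.32, adjusted P = 0.0125). WT values of ZNF880 were spread over several fold while its KO values were nearly equal, and in ZNF836 both groups were narrow. ZNF28 (chr19:53300661-53360853, minus strand; 15 fingers) was the called member with the highest level in WT cells. Its 7.88, 7.95 and 6.95 CPM in WT became 17.4, 21.2 and 15.8 CPM in KO, a log2 FC of 1.26 ± 0.19 (adjusted P = 0.0135). Of 13 other settings, ZNF880 lost its call under 6, among them DESeq2's size factors (adjusted P = 0.0506) and a stricter filter on low counts (adjusted P = 0.0622), both in edgeR. ZNF836, ZNF28 and ZNF525 each lost it under 4, ZNF808 under 3 and ZNF83 under 2.

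**Figure D1:**
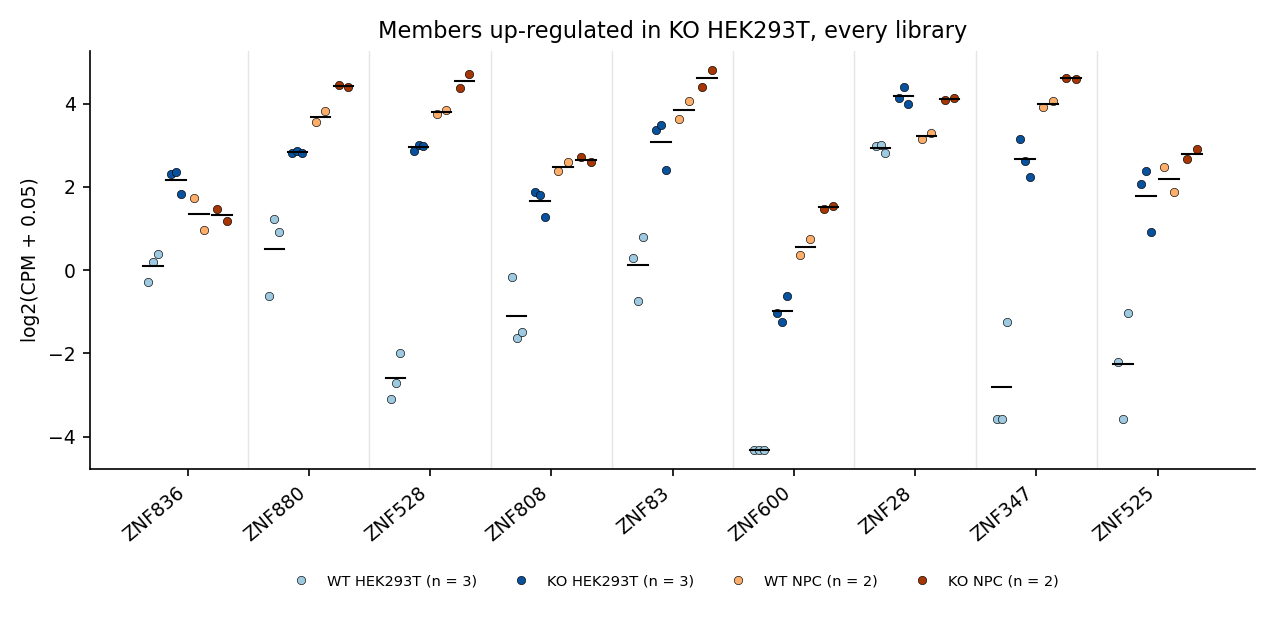
Level of each of the 9 members up-regulated in KO HEK293T, as log2(CPM + 0.05), with a point for every library, a bar for the group mean and colours for the 4 groups. In all 9 genes the 3 KO HEK293T points sit above the 3 WT HEK293T points, and the WT NPC points are above the WT HEK293T points too, at 1.23 CPM or more.

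The 9 called genes span 1.24 Mb and lie on both strands, 4 on the plus and 5 on the minus strand. All 9 encode a KRAB box and 8 to 24 fingers (median 15), and the 58 other members tested had a median of 13 fingers. Between the first and the last of them lie 28 members in all, of which 22 were tested. The 13 tested members of that stretch that were not called had a median log2 FC of 0.61, and 12 of them were above 0. The fourth position group as a whole had a median log2 FC of 0.72, with 35 of 36 tested members above 0 and 28 higher at an unadjusted P below 0.05, which held for 4.43% of all genes tested. The exception was ZNF888, at a log2 FC of -0.08 ± 0.45 (0.0054 when scaled by library size alone).

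Members of the second position group had smaller values above 0. Their median log2 FC was 0.40, 19 of 23 were above 0, and 7 were higher at an unadjusted P below 0.05 (4.43% of all genes). In the edgeR fit that gave the 9 calls, 0 of them were called. ZNF285 (10 fingers) was at 0.0668, 0.103 and 0.406 CPM in WT and 2.05, 2.12 and 0.822 CPM in KO libraries, with a log2 FC of 3.09 ± 0.65 and an adjusted P of 0.0943. ZNF404 (14 fingers) was at 1.24, 0.826 and 1.32 CPM in WT and 4.76, 2.89 and 2.8 CPM in KO, with a log2 FC of 1.62 ± 0.35 and an adjusted P of 0.107. The groups of both genes did not overlap, and both were called by DESeq2, which called 14 members: the 9 genes above, ZNF285, ZNF404, ZNF813 and the pseudogenes ZNF137P and ZNF702P. In edgeR, ZNF285 and ZNF404 passed with all 10 libraries in one fit (adjusted P = 0.0439 and 0.0322), and ZNF285 also with no filter beyond 1 count (adjusted P = 0.0492) and without WT library S17 or KO library S20. In the first position group 1 of 6 members was above 0 and the median was -0.32.

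The 8 members in which no KRAB box was found all lie in the first 3 position groups, and their difference from the KRAB members was not tested. Of 8 tested, 1 was above 0, 4 were lower at an unadjusted P below 0.05 (2.69% of all genes), and their median log2 FC was -0.53, whereas 53 of the 57 KRAB members tested were above 0 (median 0.58). ZNF574 had 33.6, 26 and 36 CPM in WT and 23.5, 18.3 and 19.1 CPM in KO libraries (log2 FC -0.65 ± 0.18, adjusted P = 0.331). ZNF526 had 20.9, 19 and 23.6 CPM in WT and 14.8, 11.9 and 15.4 CPM in KO (log2 FC -0.59 ± 0.18, adjusted P = 0.443). For both, the KO libraries lay below the WT libraries without passing the test. ZNF296, with the lowest P value of the 8, had 7.28, 6.54 and 7.32 CPM in WT and 3.89, 3.25 and 4 CPM in KO (log2 FC -0.92 ± 0.23, adjusted P = 0.195). Its groups did not overlap. In the first position group the KRAB members ZNF546 and ZNF780A had values of -0.29 and -0.36 as well. ZNF428 had a log2 FC of -0.47 ± 0.20 and ZNF576 one of -0.41 ± 0.19, and neither passed. ZFP36 (tristetraprolin), a CCCH protein that binds AU-rich mRNAs and speeds their decay, had a log2 FC of -0.01 ± 0.52, which was 0.09 when scaled by library size alone. The single one of the 8 above 0 was ZNF473, which works in the 3' end processing of histone mRNAs, at 0.22 ± 0.21. It was also the one nearest the KRAB consensus, and a divergent KRAB box in it may have been missed.

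Most other genes of the interval were below 0 in HEK293T cells. Of 347 tested, 2 were called higher (0.576%), near the 0.478% of all genes. A log2 FC above 0 was seen in 106 (30.6%, against 51.4% of all genes), and their median was -0.30. By position group their medians were -0.39, -0.31, -0.30 and 0.17 (0.11 in the last when floor genes take their bound), and all 4 lie outside the range of the medians of the 21 other autosomes, -0.12 to 0.10, the first 3 below it and the fourth, which surrounds the 9 called members, above it. The medians of the first 3 groups were below 0 in each of the 3 KO libraries, and that of the fourth was 0.27 in S18, 0.03 in S19 and -0.06 in S20. Medians outside the range of the other autosomes were not limited to this interval. Other genes at 28 to 39 Mb had a median of -0.22, below that range. Those on the short arm away from the centromere, at -0.15, were below it too. Those next to the centromere were above it at 0.20, and those from 55 Mb on were within it at 0.04. Whether the copy number of this stretch, or of other parts of chromosome 19, differs between the WT and KO lines was not tested. Transcripts of members had a median GC content of 41.7%. After subtracting the median of all genes in the same one of 20 GC bins, a correction chosen after the data were seen, the median of members was 0.53, with 55 of 67 above 0.

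**Figure D2:**
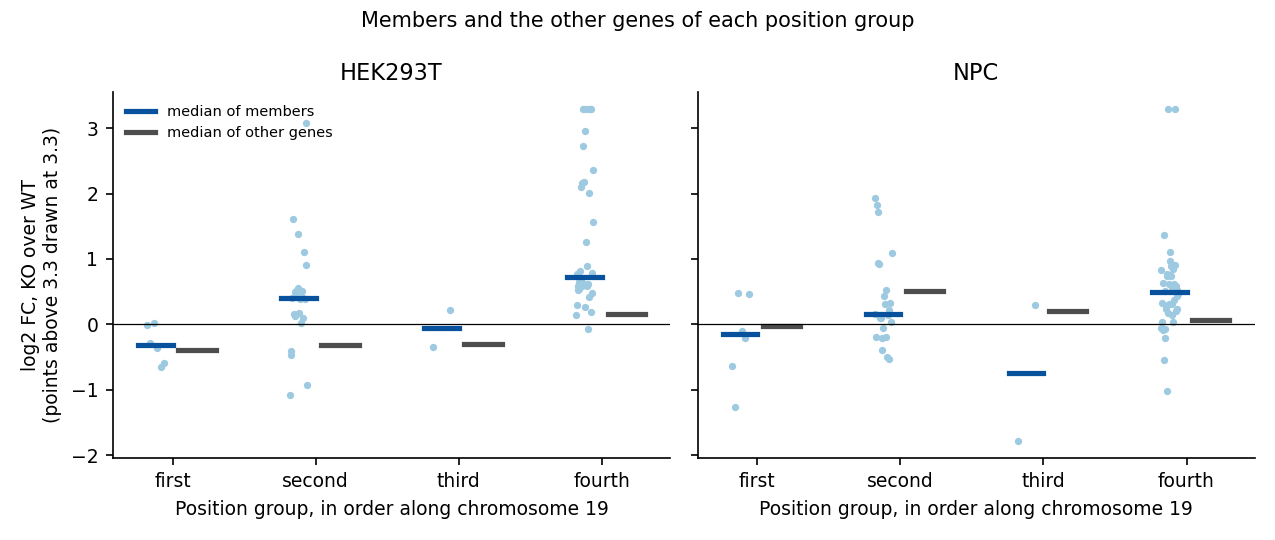
log2 FC (KO over WT, edgeR) of members by position group in HEK293T and NPCs, with blue points for members, blue bars for their median and grey bars for the median of the other genes of the same stretch. In HEK293T the member median is 0.40 in the second and 0.72 in the fourth group against -0.31 and 0.17 for the other genes, and in NPCs the second group has members at 0.15 and other genes at 0.51 (0.31 when floor genes take their bound).

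Elsewhere on chromosome 19, zinc finger genes of the short arm cluster next to the centromere, which was cut at 28 Mb, had 19 of 37 tested called higher in KO HEK293T cells and a median log2 FC of 2.05. The groups on the rest of the short arm (2 of 42), at 28 to 39 Mb (3 of 38) and from 55 Mb on (11 of 59) had medians of 0.40, 0.39 and 0.68. When floor genes take their bound, these 3 medians were 0.25, 0.39 and 0.55, and that of the cluster next to the centromere was 1.94. On other chromosomes 23 of 279 were called higher, with a median of 0.14, and 0.478% of all genes were called higher. The interval from 39 to 55 Mb, at 9 of 67 and a median of 0.54, thus lay within the range of the other chromosome 19 groups, and no test of a difference between groups was made.

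Start site sequence is shown for 5 of the genes up-regulated in HEK293T cells, to let the duplicated promoters be compared, and for ZNF677, which stayed at 0 counts there. RefSeq promoter sequences (GRCh38.p14, a different build from the hg19 positions above) were found for 57 of 73 members, and the 150 bases before the start site are given 5′ to 3′ on the strand of the gene, with CG dinucleotides in capitals. They lie at chr19:52397699-52397848 (plus), chr19:53159054-53159203 (minus), chr19:52527518-52527667 (plus), chr19:52690497-52690646 (minus), chr19:53365555-53365704 (plus) and chr19:53254824-53254973 (minus), in the order shown.
ZNF528: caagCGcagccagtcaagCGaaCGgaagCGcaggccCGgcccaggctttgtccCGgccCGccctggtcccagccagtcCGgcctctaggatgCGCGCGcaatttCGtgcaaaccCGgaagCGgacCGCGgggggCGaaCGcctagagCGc
ZNF347: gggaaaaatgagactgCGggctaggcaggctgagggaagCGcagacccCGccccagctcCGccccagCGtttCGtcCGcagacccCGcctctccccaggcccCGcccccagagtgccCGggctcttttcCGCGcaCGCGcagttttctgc
ZNF808: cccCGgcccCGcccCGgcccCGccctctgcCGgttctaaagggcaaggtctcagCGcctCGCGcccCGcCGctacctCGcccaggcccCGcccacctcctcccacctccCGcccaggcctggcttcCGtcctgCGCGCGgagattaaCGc
ZNF83: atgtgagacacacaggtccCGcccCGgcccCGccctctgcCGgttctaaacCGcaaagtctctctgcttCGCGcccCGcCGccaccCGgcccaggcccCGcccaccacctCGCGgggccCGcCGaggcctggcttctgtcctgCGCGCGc
ZNF525: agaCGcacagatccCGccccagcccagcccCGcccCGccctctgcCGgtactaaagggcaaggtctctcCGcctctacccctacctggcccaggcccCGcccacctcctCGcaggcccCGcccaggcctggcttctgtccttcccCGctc
ZNF677: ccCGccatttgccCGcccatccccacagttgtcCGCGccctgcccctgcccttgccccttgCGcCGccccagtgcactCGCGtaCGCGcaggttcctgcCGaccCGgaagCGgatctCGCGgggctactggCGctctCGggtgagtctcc

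These windows were dense in CG. A member's 300 bases around its start, 250 before and 50 after, held a median of 22 CG dinucleotides, and all 35116 RefSeq promoters held a median of 14. The ETS-type letters CCGGAAG stood on either strand in 47.4% of members and 10.3% of all promoters. The GC box letters GGGCGG were in 64.9% of members and 45.0% of all promoters, AANATGGC was in 12.3% and 6.58%, and TATAAA was in 0 of the 57 members and 11.5% of all promoters. Of the genes up-regulated in HEK293T cells 7 had a promoter in the table, with a median of 27 CG dinucleotides, CCGGAAG in 71.4% and GGGCGG in 100%. The 4 members with a promoter that were at the floor in HEK293T cells had these letters in 75% and 100%, and the 50 members not called had them in 44% and 60%. The 300 bases of ZNF808 and ZNF83 shared an identical run of 33 bases, and those of ZNF808 and the uncalled ZNF701 one of 45 bases, where the median of the 1596 pairs of members was 9 and 57 pairs shared 20 or more. Reads that map equally well to several such genes were not counted. Also, 37 members overlap another annotated gene, 20 of them one on the same strand, among them ZNF808 with ZNF701, ZNF28 with ZNF468, ZNF347 with ZNF415 and ZNF525 with ZNF765, and how reads of a shared stretch were assigned is not stated.

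In KO NPCs most members also had a fitted level above WT, but other members passed the test. Of 73 tested, 6 were up-regulated, ZNF283, ZNF404, ZNF841, ZNF578, ZNF611 and the pseudogene ZNF818P, and 1, ZNF114, was down-regulated. These are shares of 8.22% and 1.37%, and in all 20577 genes tested 8.45% were called higher and 8.36% lower, so the count of members up-regulated was near that of any gene, and the count down-regulated below it. The log2 FC was above 0 in 54 members, with a median of 0.32, whereas the median of all genes was -0.02. In 42 members both KO libraries were above both WT libraries, against 33.3% of all genes, and in 11 both were below, against 33.8% of all genes. A further 11 members had an adjusted P below 0.05 with a smaller rise, of 0.57 to 0.93 on the log2 scale: ZNF45, ZNF614, ZNF880, ZNF528, ZNF83, ZNF28, ZNF468, ZNF320, ZNF702P, ZNF347 and ZNF677. They are 15.1% of members, and 6.51% of all genes tested met this rule. ZNF432 had an adjusted P below 0.05 with a smaller fall (log2 FC -0.55, adjusted P = 0.0495), which held for 5.30% of all genes. Leaving out KO library S2 lowered the 6 calls to 3, and leaving out WT library S5 raised the calls lower from 1 to 2.

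ZNF283 and ZNF404 lie side by side in the second position group. ZNF283 (ENSG00000167637, chr19:44331473-44356169, plus strand; 15 fingers) had 2.41 and 4.15 CPM in WT and 11.3 and 12 CPM in KO libraries, a log2 FC of 1.83 ± 0.31 (adjusted P = 0.00538). ZNF404 (ENSG00000176222, chr19:44376517-44405537, minus strand; 14 fingers) had 4.21 and 3.74 CPM in WT and 11.4 and 14.9 CPM in KO, a log2 FC of 1.72 ± 0.25 (adjusted P = 0.00294). In both the KO libraries were more than 2-fold above the WT libraries, without overlap. ZNF841 (chr19:52567718-52599018, minus strand; 20 fingers) went from 5.3 and 6.5 CPM to 15.2 and 15.3 CPM (log2 FC 1.37 ± 0.22, adjusted P = 0.00414). ZNF611 (chr19:53206066-53238326, minus strand; 13 fingers) went from 5.73 and 4.76 CPM to 10.9 and 11.8 CPM (log2 FC 1.11 ± 0.23, adjusted P = 0.0127). The first 3 of these genes kept their call under all 11 other settings, and ZNF611 lost it under 3.

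ZNF578 and ZNF818P were near 0 in WT NPCs. ZNF578 (chr19:52956806-53020135, plus strand; 10 fingers) had 1 and 0 counts in WT and 17 and 28 counts in KO libraries, a ratio of 43.1 after scaling for depth (exact 95% interval of the counting error 7.35 to 1740; adjusted P = 0.0106). ZNF818P (chr19:53707269-53717775, plus strand) had 2 and 1 counts in WT and 18 and 23 in KO, a ratio of 13.1 (4.18 to 66.1; adjusted P = 0.015). In both, each KO library was above each WT library. ZNF578 lost its call without KO library S2 (adjusted P = 0.078), and ZNF818P without S1 or S2 (adjusted P = 0.0737 and 0.0967). In HEK293T cells the reads of these genes were 2 counts of ZNF578 in 1 KO library.

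ZNF114 (ENSG00000178150, chr19:48773338-48790865, plus strand), with 3 fingers the KRAB member with the fewest, was the exception in direction. It had 11.1 and 13.6 CPM in WT and 3.95 and 3.2 CPM in KO NPCs, a log2 FC of -1.79 ± 0.26 (adjusted P = 0.00267). Both KO libraries were below both WT libraries, and the call held in every other fit that used all 4 NPC libraries. With an NPC library left out, and so 1 library in its group, the log2 FC of ZNF114 was -1.95 to -1.65. In HEK293T cells the gene was at 1.47, 1.38 and 1.52 CPM in WT and 0.874, 0.89 and 1.68 CPM in KO, and these groups overlapped.

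**Figure D3:**
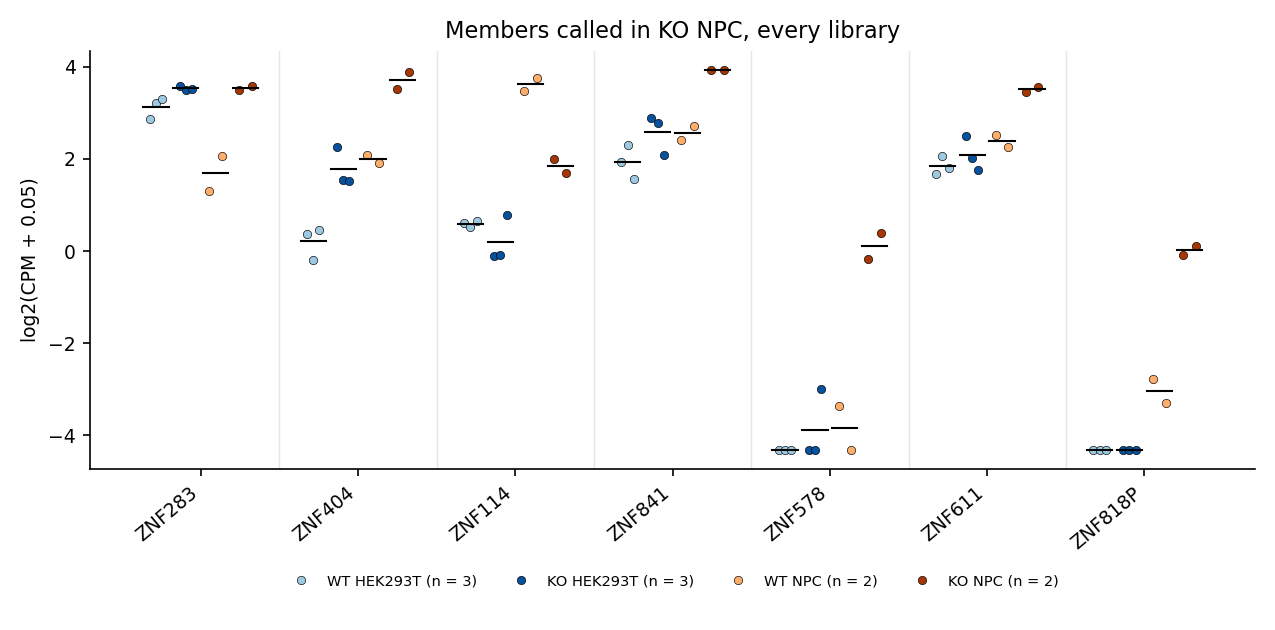
Level of each of the 7 members called in KO NPCs, as log2(CPM + 0.05), with a point for every library, a bar for the group mean and colours for the 4 groups. The 2 KO NPC points lie above the WT NPC points in 6 genes and below them in ZNF114, and ZNF818P is at 0 counts in all 6 HEK293T libraries.

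The KO NPC libraries also differed from WT in cell type markers. Of 13 neural progenitor genes tested, 10 were called lower and 0 higher, with a median log2 FC of -3.72 (-2.82 when floor genes take their bound). SOX1 was called lower, with 154 and 989 counts in WT and 1 and 2 in KO, and the mean level of SOX2 was 223 CPM in WT and 16.9 CPM in KO, while NES was at 2630 and 3135 CPM. HES5 had 6 and 4 counts in WT and 0 in both KO libraries. Of 12 mesenchymal genes 6 were called higher and 0 lower (median 1.85), among them COL1A1, from 601 to 3480 CPM. The summed level of the mesenchymal list was 3063 and 2441 CPM in WT and 9642 and 8795 CPM in KO, and that of the neural progenitor list 3902 and 4955 CPM in WT and 3412 and 3311 CPM in KO, most of it NES. Of 4 pluripotency genes tested, LIN28A was called lower and ZFP42 higher. The part of these marker changes in the NPC values of the members was not tested. In HEK293T cells 0 of 9 neural progenitor and 0 of 8 mesenchymal genes tested were called in either direction, with 1 of each list at an unadjusted P below 0.05. Of kidney lineage genes, EYA1 was at 6.57 CPM in WT HEK293T cells, PAX2 at 0.37 CPM and PAX8 at 0.

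The other genes of the interval differed in NPCs as well. Their median log2 FC by position group was -0.03, 0.51, 0.20 and 0.06, or -0.03, 0.31, 0.14 and -0.03 when floor genes take their bound, and on both scales the second and the third group lie outside the range of the 21 other autosomes, -0.11 to 0.07. In the second group, which holds ZNF283 and ZNF404, the median of the 23 members was 0.15 and thus below that of their 50 neighbours, and in the fourth the median of the 42 members was 0.49, with 35 above 0, and thus above. Zinc finger genes at 28 to 39 Mb had 15 of 38 called higher in NPCs (39.5%, median 0.89), where 8.45% of all genes were. The cluster next to the centromere had 3 of 34 (8.82%, median 0.03) and the rest of the short arm 3 of 45 (6.67%, median 0.03). From 55 Mb on it was 4 of 65 (6.15%, median -0.24), and on other chromosomes 9 of 284 (3.17%, median -0.21). Called lower were 3 from 55 Mb on (4.62%), 1 on the rest of the short arm (2.22%) and 18 on other chromosomes (6.34%), against 8.36% of all genes.

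**Figure D4:**
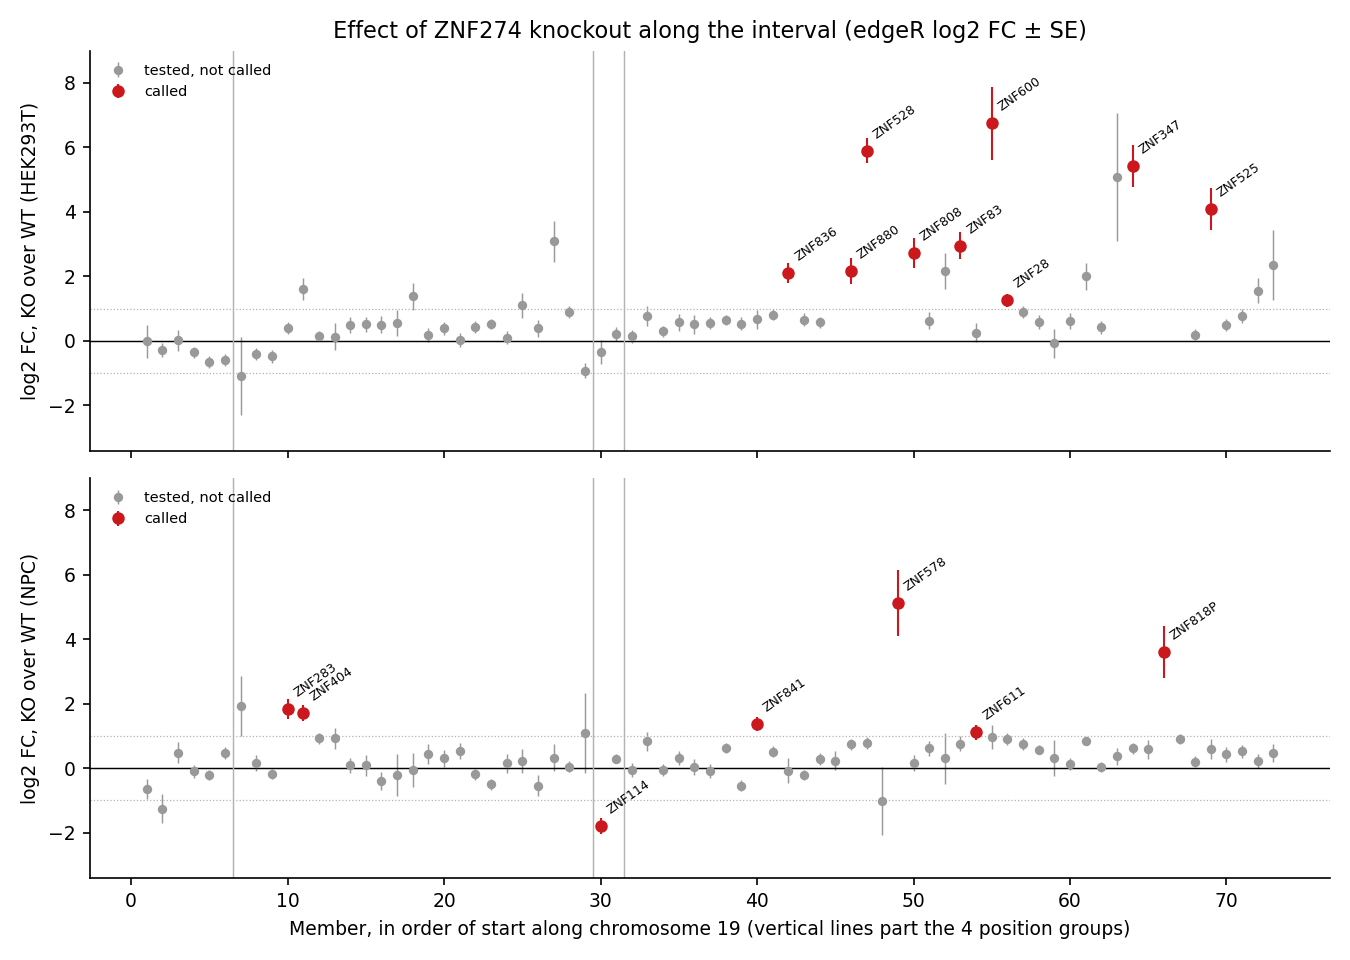
log2 FC of KO over WT (edgeR, ± SE) for members in order along chromosome 19, in HEK293T above and NPCs below, with called members in red and named, dotted lines at a 2-fold change and vertical lines between the position groups. The 9 HEK293T calls all fall in the last group at log2 FC 1.26 or more, and the 7 NPC calls are spread from the second group to the last, with ZNF114 at -1.79. The heights of ZNF600 in HEK293T and ZNF578 and ZNF818P in NPCs are fitted values that depend on the prior count, since their WT libraries held 0 to 2 counts.

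No member was up-regulated in both cell types by edgeR or voom fitted to each cell type, whereas DESeq2, and edgeR with all 10 libraries in one fit, called 1 in both, ZNF404. This depends on the 2-fold limit: of the 9 members up-regulated in HEK293T cells, 8 had a log2 FC above 0 in NPCs, as did 48.8% of all genes. Of the 9, 5 (ZNF880, ZNF528, ZNF83, ZNF28 and ZNF347) were higher there at an adjusted P below 0.05 with a rise under 2-fold. This held for 6.51% of all genes, beside the 8.45% called higher. At an unadjusted P below 0.05, 16 of 67 members were higher in both, which held for 1.01% of all genes tested in both. Of the 67 members tested in both, 44 were above 0 in both, 12 above 0 in HEK293T alone, 5 in NPCs alone and 6 in neither. Of all genes tested in each cell type, 51.4% were above 0 in HEK293T and 48.8% in NPCs. Across these members the log2 FC in one cell type followed that in the other weakly (Pearson's r = 0.21, Spearman's rho = 0.28), which describes genes of shared libraries and not replicates.

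The difference of the KO effects was tested as an interaction over all 10 libraries. The effect was lower in NPCs than in HEK293T in 10 members and higher in 2, of 67 tested, and 7.01% of all 17506 genes were called lower and 6.83% higher in this test. The test uses the HEK293T libraries that also gave the 9 genes up-regulated there, so a high HEK293T effect by itself lowers the difference. Among the 10 were 7 of these 9 genes. Their interaction log2 differences were -5.58 ± 1.06 for ZNF600 (adjusted P = 0.00620, a fitted value that depends on the prior count, since its WT HEK293T libraries were at 0), -5.10 ± 0.42 for ZNF528 (adjusted P = 2.10e-05), -4.78 ± 0.71 for ZNF347 (adjusted P = 0.000931), -3.47 ± 0.83 for ZNF525, -2.54 ± 0.58 for ZNF808, -2.17 ± 0.56 for ZNF83 and -2.15 ± 0.52 for ZNF836. The other 3 were ZNF285 at -2.73 ± 0.86, ZNF702P at -1.13 ± 0.30 and ZNF432 at -1.06 ± 0.26. ZNF28 differed by -0.33 ± 0.28 (adjusted P = 0.446) and was not called, with a log2 FC of 1.26 in HEK293T and 0.90 in NPCs. ZNF880, at -1.39 ± 0.52 (adjusted P = 0.0869), was not called either. It was called lower by DESeq2, by voom and without WT HEK293T library S16. The 12 calls fell to 7, 5 and 4 without the NPC libraries S3, S1 and S2.

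ZNF432 and ZNF526 had effects on opposite sides of 0. ZNF432, with 16 fingers, was at 8.11, 9.39 and 8.44 CPM in WT and 13, 13.1 and 11.6 CPM in KO HEK293T libraries, and at 27.6 and 23.2 CPM in WT and 16.8 and 18 CPM in KO NPC libraries. The KO libraries were above WT in the first and below WT in the second, and neither effect alone reached 2-fold. ZNF526 was lower in KO HEK293T libraries, as given above, and had 13 and 15.8 CPM in WT and 20.5 and 19.2 CPM in KO NPC libraries, with an interaction of 1.08 ± 0.27 (adjusted P = 0.0168). ZNF283, which had 7.21, 9.19 and 9.86 CPM in WT and 12, 11.3 and 11.4 CPM in KO HEK293T libraries, had an interaction of 1.46 ± 0.36 (adjusted P = 0.0165). Its KO levels were nearly the same in both kinds of cell, and its WT level was lower in NPCs.

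**Figure D5:**
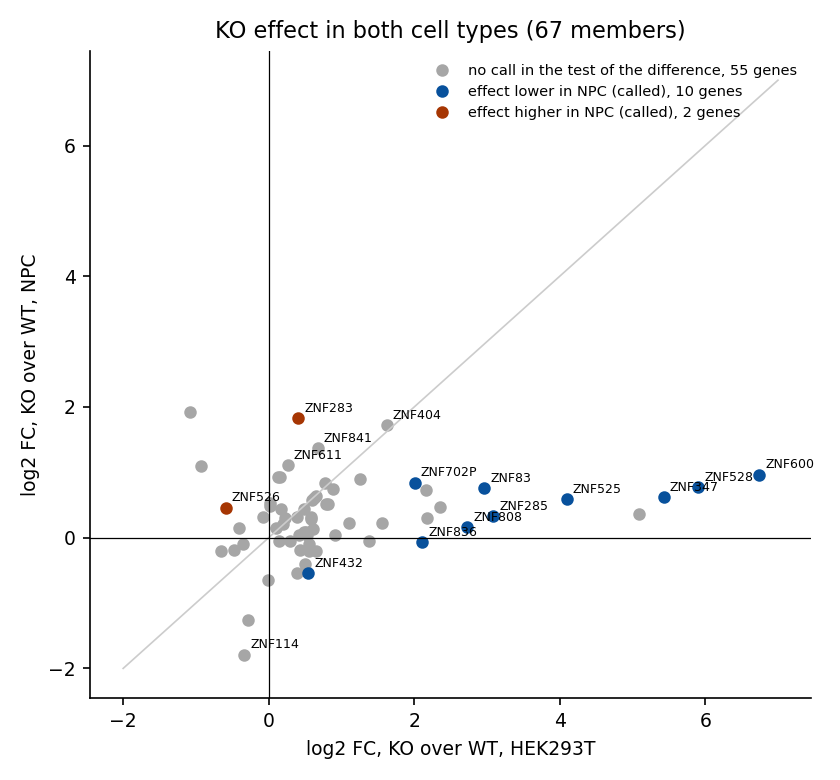
log2 FC of KO over WT in NPCs against that in HEK293T for the 67 members tested in both, with the line of equal effect and colours for the test of the difference. The 10 members called lower in NPCs lie far to the right or below the line, with NPC values between -0.55 and 0.96, and ZNF283 and ZNF526 lie above it.

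WT NPCs started from higher levels of many members than WT HEK293T cells. In the fit of all 10 libraries 22 of 67 members were higher in WT NPCs and 3 lower, where 20.4% of all genes were called higher and 16.6% lower. This comparison and that of KO with WT HEK293T cells use the same 3 WT HEK293T libraries, so a low value there raises both. ZNF528 was at 13.3 and 14.3 CPM and ZNF347 at 15 and 16.7 CPM in WT NPCs, above their levels in KO HEK293T cells, and KO NPCs had 20.8 and 26.3 CPM of ZNF528 and 24.4 and 24.2 CPM of ZNF347. These CPM values were normalised in each cell type separately. The 3 members lower in WT NPCs were ZNF296, with 7.28, 6.54 and 7.32 CPM in WT HEK293T cells and 3 counts in each WT NPC library, ZNF283 (log2 difference -1.40 ± 0.27) and ZNF576 (-1.30 ± 0.22).

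Per kb of exon, the most abundant members were ZNF428, ZNF574 and ZNF45 in WT HEK293T cells, at 18.4, 6.83 and 5.33 CPM per kb, and ZNF428, ZNF574 and ZNF649 in WT NPCs, at 19.2, 5.64 and 5.42 CPM per kb. The median member was at 0.84 and 1.62 CPM per kb. The pseudogene ZNF702P, at 5.42 CPM per kb in WT NPCs, was level with ZNF649, and went from 38.7 and 43.3 CPM to 73.5 and 73.7 CPM in KO NPCs (log2 FC 0.84 ± 0.12, adjusted P = 0.00267). In HEK293T cells it was at 0.234, 0.275 and 0.373 CPM in WT and 1.35, 1.07 and 1.16 CPM in KO libraries, where it did not pass the test (adjusted P = 0.0971).

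Not every member silent in HEK293T cells gained reads after the deletion. In WT HEK293T libraries 8 members had 0 counts, ZNF610, ZNF534, ZNF578, ZNF600, ZNF415, ZNF665, ZNF818P and ZNF677. ZNF665, ZNF818P and ZNF677 stayed at 0 in the 3 KO libraries, which allows up to 0.131 CPM in the shallowest of them. ZNF610, ZNF534 and ZNF578 had at most 2 counts in any KO library, and ZNF415 had 8, 0 and 3. Of the 8, ZNF600 and ZNF415 had enough reads to be tested and ZNF600 was called. In NPCs 5 of these genes were clearly transcribed in WT cells, with ZNF677 at 17.3 and 19.6 CPM, ZNF415 at 15 and 9.37 CPM, ZNF610 at 4.69 and 5.83 CPM, ZNF665 at 3.74 and 3.23 CPM and ZNF600 at 1.23 and 1.64 CPM. ZNF677 and ZNF665 have 10 and 18 fingers and lie on either side of ZNF818P, close to ZNF347, a gene that gained reads in KO HEK293T cells. In KO NPCs ZNF677 rose to 33 and 35.9 CPM (log2 FC 0.90 ± 0.15, adjusted P = 0.00534), and ZNF665 was at 5.83 and 4.64 CPM (adjusted P = 0.185).

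Of 11 corepressor and H3K9me3 genes of the KRAB pathway, 0 were called by edgeR in either cell type. In HEK293T cells the median log2 FC was -0.02, and 1 gene, TRIM28, the corepressor that binds KRAB domains, was lower at an unadjusted P below 0.05. TRIM28 had 1027, 813 and 992 CPM in WT and 313, 353 and 846 CPM in KO libraries S18, S19 and S20 (log2 FC -0.90 ± 0.31, adjusted P = 0.537). It was lowest in S18 and S19, the libraries in which the median of members was highest, and the part of this in the members' values was not tested. In NPCs 2 were higher and 5 lower at that level (20.6% and 19.7% of all genes) and the median was -0.11, and 6 had an adjusted P below 0.05 with an FC under 2. In NPCs TRIM28 had 679 and 753 CPM in WT and 447 and 488 CPM in KO libraries (log2 FC -0.61 ± 0.11, adjusted P = 0.00620), and SETDB1 was at 76.7 and 50.1 CPM (log2 FC -0.61, adjusted P = 0.00877), and CBX1 (log2 FC -0.56, adjusted P = 0.00702), ATF7IP (-0.55, adjusted P = 0.0129) and CBX5 (-0.39, adjusted P = 0.0374) were lower too. MPHOSPH8, the H3K9me3 reader of the HUSH complex, was at 48.9 and 69.4 CPM (log2 FC 0.51, adjusted P = 0.0168).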

How the data were processed

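Libraries were poly(A)-selected and stranded. The authors aligned them to hg19 (HISAT2), assigned uniquely aligned reads to genes and transposable elements (featureCounts), and deposited raw counts per gene for each cell type. Versions, annotation release and the strand setting of the counting are not given in the sources used here. Groups came from the labels, which pair no libraries.

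Identifiers were matched to the GENCODE annotation lifted to hg19 (23273 of 24050). Genes with a total count of at least the number of libraries entered the quasi-likelihood test of edgeR 4.0.16 under R 4.3.3, after TMM scaling, with Benjamini-Hochberg adjustment over all of them. Between cell types, the interaction of cell type and genotype was fitted over all 10 libraries. DESeq2 1.42.0, voom (limma 3.58.1), other scalings, filters and thresholds, and each library left out were alternatives. KRAB boxes and fingers were read from coding sequence of GRCh37, translated, with at least 20 of 40 consensus residues for a KRAB box. Floors cover counting error only.

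The members and all lists were chosen with earlier results of these data known. Named were members called in either cell type or in the interaction, the 3 most abundant per kb, members without WT counts, and ZNF274. Also named were 5 members in which no KRAB box was found. Others named in the text were chosen after their values were seen. A few marker genes are not reported here.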

Additional observations from a re-analysis of the deposited data

Results flagged for a closer look

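In 12 members the effect of the knockout differed between the cell types by the interaction test. The log2 difference, NPC effect minus HEK293T effect, was -5.58 for ZNF600 (a fitted value, with its WT HEK293T libraries at 0), -5.10 for ZNF528, -4.78 for ZNF347, -3.47 for ZNF525, -2.73 for ZNF285, -2.54 for ZNF808, -2.17 for ZNF83, -2.15 for ZNF836, -1.13 for ZNF702P and -1.06 for ZNF432. It was 1.46 for ZNF283 and 1.08 for ZNF526. ZNF528, ZNF347 and ZNF600 kept this call under all 16 other settings. ZNF285, ZNF526 and ZNF702P lost it under 7, 6 and 6 of them.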

How the results depend on the processing

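Called members kept their direction under every setting run of the comparison that called them. Of the members not called in a cell type, ZFP36 and ZNF888 in HEK293T and 5 members in NPCs changed sign when scaled by library size alone. ZNF137P did so in NPCs under voom (0.31 to -0.07). With 1 library left out, 1 to 3 members not called in HEK293T changed sign there, and 4 to 7 not called in NPCs did there. Among the latter were ZNF836, called in HEK293T, and ZNF285, called in the interaction. The 9 members up-regulated in KO HEK293T became 14 with DESeq2 and 3 at an adjusted P below 0.01 (ZNF528, ZNF83 and ZNF347), and ranged from 2 to 8 with 1 library left out. The 6 members up-regulated in KO NPCs became 3 at 0.01 and 17 without a limit on FC, with 3 to 7 when a library was left out. The 1 member down-regulated there became 2 without a limit on FC and 2 with all 10 libraries in one fit, and 1 to 2 with a library left out. The 12 members whose effect differed between cell types became 3 at 0.01, and 4 to 13 with a library left out. Scaling by library size alone moved the median of all genes in NPCs from -0.02 to -0.13 and that of members from 0.32 to 0.21, with 49 of 73 above 0. In HEK293T members were above 0 in 56 to 58 of 67 under TMM, DESeq2's size factors and library size. With 2 libraries a group in NPCs and few reads in genes such as ZNF600, single calls rest on few libraries and few counts. Leaving out an NPC library left 1 library in its group, so the spread in those fits came from the other groups alone.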
